A study of Homo sapiens with 11 samples.

Results

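In HK2 cells, 882 of 12871 regions that carried both H3K4me3 and H3K27ac lay over 1 kb from every annotated transcription start of any gene type (6.85%, 95% Wilson interval 6.43 to 7.30%). HK2 is an immortalised line from the proximal tubule of an adult human kidney, grown as 1 unperturbed condition in DMEM-F12 medium with serum and a low concentration of DMSO. The study described the chromatin of tubule cells, and its ChIP-seq gave 3 marks with 2 replicates each and its RNA-seq gave 2 libraries, while input DNA and HiChIP were not analysed here. As a model it is limited to 1 line in culture, and the study itself treats it as an imperfect match of the native kidney. Nothing in the labels says that replicates came from separate cultures, so the spread between them may be technical.

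The members were chosen from the marks. The hg19 chromosomes 1 to 22 and X were divided into bins of 200 bp, and a mark was on in a bin if each replicate's peaks overlay 100 bp or more of it. Neighbouring bins with H3K4me3 and H3K27ac on, and H3K27me3 not on, were joined, and a region was kept when both of its edges were over 1 kb from each of 219838 annotated starts in GENCODE version 44 mapped to GRCh37. The mark patterns below therefore describe how the regions were picked and were not tested. At the limit, the innermost members lay 1003 and 1006 bp from a start, and the nearest active regions left out lay at 1000 and 984 bp.

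H3K4me3 is deposited at promoters that are in use or poised, and CpG-rich DNA without methylation recruits the enzymes that place it. H3K27ac marks promoters and enhancers that are active, and H3K27me3 is the mark of Polycomb repression. An active enhancer usually carries H3K27ac with little H3K4me3, so a place with much of both marks looks like a promoter whether or not a transcript start is annotated there.

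The members varied widely in CpG content, and some held matches to the AP-1 motif. AP-1 is the family of FOS and JUN transcription factors, which bind many enhancers. The 300 bp at the midpoint are shown on the plus strand of hg19, first for the 3 longest members and then for the 2 further members densest in CpG, with each CpG in capitals, because CpG density is the property by which members are set against annotated promoters below.
RIN2 coding exon, chr20:19955851-19956150: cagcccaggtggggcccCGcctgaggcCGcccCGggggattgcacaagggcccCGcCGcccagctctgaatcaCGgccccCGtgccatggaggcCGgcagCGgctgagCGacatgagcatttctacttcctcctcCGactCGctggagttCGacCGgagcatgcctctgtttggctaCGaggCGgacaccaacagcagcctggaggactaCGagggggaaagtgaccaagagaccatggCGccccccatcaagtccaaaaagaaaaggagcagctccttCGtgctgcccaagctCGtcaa
BCOR intron, chrX:39965251-39965550: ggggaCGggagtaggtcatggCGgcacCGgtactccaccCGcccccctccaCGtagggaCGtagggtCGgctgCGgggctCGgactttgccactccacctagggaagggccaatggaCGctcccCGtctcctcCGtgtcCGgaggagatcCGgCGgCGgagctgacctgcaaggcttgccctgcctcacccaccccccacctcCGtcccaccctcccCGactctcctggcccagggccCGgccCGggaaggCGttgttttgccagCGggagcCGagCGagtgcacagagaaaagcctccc
APC2 coding exon, chr19:1469351-1469650: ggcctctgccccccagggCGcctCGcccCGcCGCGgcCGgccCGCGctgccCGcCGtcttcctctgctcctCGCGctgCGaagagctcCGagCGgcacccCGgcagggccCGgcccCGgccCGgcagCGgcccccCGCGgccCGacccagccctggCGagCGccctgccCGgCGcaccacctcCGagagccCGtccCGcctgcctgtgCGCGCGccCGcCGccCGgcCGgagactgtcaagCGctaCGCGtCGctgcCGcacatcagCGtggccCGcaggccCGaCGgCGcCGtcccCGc
ZFPM1 coding exon, chr16:88600251-88600550: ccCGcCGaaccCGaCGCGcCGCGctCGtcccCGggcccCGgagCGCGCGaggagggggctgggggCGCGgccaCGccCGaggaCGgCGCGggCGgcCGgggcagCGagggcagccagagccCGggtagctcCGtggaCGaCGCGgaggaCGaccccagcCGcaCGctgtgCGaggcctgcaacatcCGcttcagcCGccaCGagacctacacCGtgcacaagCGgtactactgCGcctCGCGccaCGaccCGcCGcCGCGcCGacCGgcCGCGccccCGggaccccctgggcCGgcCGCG
KDM2B intron, chr12:121904551-121904850: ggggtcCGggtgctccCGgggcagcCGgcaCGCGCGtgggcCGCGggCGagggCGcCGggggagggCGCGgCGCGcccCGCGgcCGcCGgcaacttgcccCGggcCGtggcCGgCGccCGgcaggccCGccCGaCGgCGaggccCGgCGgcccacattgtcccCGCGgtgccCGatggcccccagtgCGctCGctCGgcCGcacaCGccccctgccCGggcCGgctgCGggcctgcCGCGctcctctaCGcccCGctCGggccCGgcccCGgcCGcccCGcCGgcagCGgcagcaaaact

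These windows held 20, 24, 49, 53 and 52 CpG respectively, against a median of 15 over the 882 members. The APC2 region was among the 3 longest, and its window was next in CpG after those of ZFPM1 and KDM2B, tied at 49 with windows in KBTBD11 and MYO1D. The first 2 genes encode RIN2, an activator of the endosomal GTPase RAB5, and BCOR, a corepressor that binds BCL6. APC2 is a relative of the tumour suppressor APC, ZFPM1 is a cofactor of GATA factors, and KDM2B is a histone demethylase that itself binds CpG-rich DNA.

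The 3 members with the most matches to the AP-1 letters TGANTCA follow, with the matches in capitals, to show members chosen by that motif, whatever their CpG content.
Intergenic, near MRPS21P6, chr10:126920051-126920350: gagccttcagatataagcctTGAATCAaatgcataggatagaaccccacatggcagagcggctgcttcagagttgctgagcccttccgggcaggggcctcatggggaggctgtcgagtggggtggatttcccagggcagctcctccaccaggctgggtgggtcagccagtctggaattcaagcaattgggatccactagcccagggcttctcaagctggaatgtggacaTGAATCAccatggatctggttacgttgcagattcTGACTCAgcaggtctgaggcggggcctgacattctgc
Intergenic, near RPS4XP19, chr18:9017251-9017550: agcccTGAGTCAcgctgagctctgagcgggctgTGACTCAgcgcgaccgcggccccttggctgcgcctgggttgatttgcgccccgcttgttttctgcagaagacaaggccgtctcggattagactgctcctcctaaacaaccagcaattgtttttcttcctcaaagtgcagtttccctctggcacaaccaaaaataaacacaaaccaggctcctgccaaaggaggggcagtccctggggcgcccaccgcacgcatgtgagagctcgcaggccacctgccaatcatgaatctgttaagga
SPSB1 intron, chr1:9376151-9376450: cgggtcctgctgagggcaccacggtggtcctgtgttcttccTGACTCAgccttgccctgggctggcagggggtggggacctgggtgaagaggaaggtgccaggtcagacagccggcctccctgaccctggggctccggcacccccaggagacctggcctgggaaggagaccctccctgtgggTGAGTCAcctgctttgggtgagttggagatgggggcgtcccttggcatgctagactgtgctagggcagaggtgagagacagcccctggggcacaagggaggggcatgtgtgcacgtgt

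They held 3, 2 and 2 matches and 5, 15 and 6 CpG. A match to these letters is a description of the sequence and not a binding site.

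Members were shorter than active regions at annotated starts, and most had no other member nearby. Their median width was 400 bp (quartiles 400 and 800 bp, longest 2400 bp), against 600 bp for the 11989 active regions with a start within 1 kb, and all members together covered 0.513 Mb against 10.1 Mb. A single bin made up 183 members (20.7%, interval 18.2 to 23.5%) and 8.75% of the regions with a start. At least 1000 bp was reached by 145 members (16.4%) and by 35.9% of the regions with a start. The share of active regions without a start accordingly went down with width, from 14.9% at 200 bp to 8.47% at 400 to 600 bp, 4.76% at 800 to 1000 bp and 2.89% at 1200 bp or more. Distance was taken from a region's edges, so a wider region comes within 1 kb of a start more readily. How much of the difference in width follows from this rule was not tested. With gaps of up to 5 kb joined, the members formed 809 groups, of which 744 held a single member. An active region of any kind lay within 1 kb of 215 members (24.4%) and within 5 kb of 291 (33.0%).

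Close to the midpoint, peaks of H3K4me3 were narrower at members than at annotated starts. At 1 kb to one side, 35.4% of members lay in an H3K4me3 peak of replicate 1 and 17.5% in one of replicate 2, against 68.5% and 32.7% of the regions with a start. At 5 kb to the other side the order had turned in both replicates, with 6.69% and 7.03% of members against 3.72% and 3.45% of the regions with a start. At 1 kb, H3K27ac peaks held more members than H3K4me3 peaks did, with 54.9% and 30.5%. On both outer sides, 264 members (29.9%) passed into bins with H3K27ac alone, against 5.91% of the regions with a start, while bins with H3K4me3 alone lay on both sides of 159 members (18.0%) against 41.9%. At members H3K27ac was thus more often the broader mark, and at annotated starts H3K4me3 was.

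**Figure D1:**
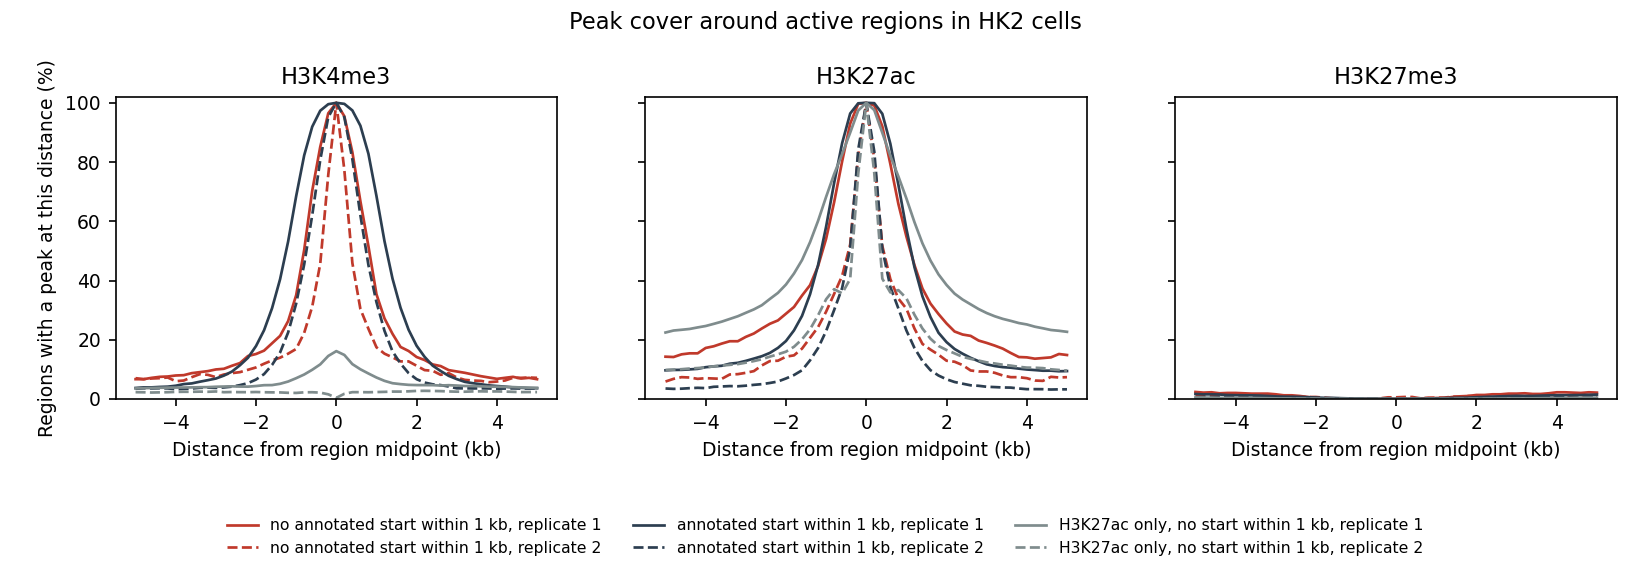
Share of regions (%, vertical axis) that lay in a peak of each mark at a given distance from the region midpoint (kb, horizontal axis), for members, active regions with a start and H3K27ac-only regions, with a line for each replicate. Near the midpoint the lines for H3K4me3 are narrower at members than at regions with a start, those of replicate 2 are narrower than those of replicate 1, and H3K27me3 stays near 0; the values at the midpoint follow from how the regions were picked.

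Replicates differed in how many such regions they gave. The peak lists hold 29130 and 73942 peaks for H3K4me3 in replicates 1 and 2, with median widths of 1197 and 434 bp, and 57761 and 38639 peaks for H3K27ac, with median widths of 1359 and 658 bp. Replicate 2 alone gave 1100 active regions without a start of 13198 active regions, and these overlapped 876 of the 882 members. Replicate 1 alone gave 7793 of 22549, a share of 34.6%, and 701 members (79.5%) were overlapped by one of them. The further regions of replicate 1 were mostly unlike the members in sequence, since their set had a median CpG observed/expected ratio of 0.287 against 0.523 with replicate 2 alone, and 9.56% of it met the island-like criterion below, against 37.8%. The number of members was therefore near that of replicate 2 alone and far below that of replicate 1 alone. The values below hold for the regions that both replicates gave.

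H3K27me3 was nearly absent. No member was overlapped by an H3K27me3 peak of replicate 1, and 6 were overlapped by one of replicate 2 (0.680%), against 15 and 41 of the 11989 regions with a start. Of those 6, 4 lay within 1 Mb of an unsequenced run of at least 1 Mb in the reference, as did 10 of all 882 members. They included the 3 members farthest from any start, at chr19:27732001-27732400, chr1:121484201-121485400 and chr7:61968801-61969600, which lay 398173, 161879 and 146932 bp from one. The first of these was 219 bp and the second 35 bp from the unsequenced run, and their 300-bp windows had a GC content of 37.0, 39.3 and 39.0%, below the lower quartile of members at 56.3%. All 3 antibodies gave a peak there in replicate 2. Input DNA was not analysed here, so what part the mapping of repeated sequence has in these places was not tested. Without the 10 members the median CpG ratio was 0.590 and the median FPKM of host genes 7.49, close to the values with them.

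For most members the H3K4me3 peak did not run on to an annotated start. The H3K4me3 peak of replicate 1 over a member also covered an annotated start in 161 cases (18.3%), and that of replicate 2 in 65 (7.37%). In 689 members (78.1%, interval 75.3 to 80.7%), the H3K4me3 peaks of both replicates stayed over 1 kb from every start. Of these 46.4% had CpG-rich sequence of the island-like kind defined below, against 43.0% of the 193 whose peak came within 1 kb of a start, and the median distances to a start were 7398 and 1422 bp. Over all members the median distance was 5306 bp (quartiles 2138 and 12550 bp), with 210 members between 1 and 2 kb, 214 between 2 and 5 kb, 347 between 5 and 20 kb and 111 beyond 20 kb. The nearest start belonged to a protein-coding gene for 490 members and to a long noncoding RNA for 231, and 500 members (56.7%) lay downstream of it.

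In base composition the members stood between annotated promoters and enhancer-like regions, and with both replicates required they were nearer to the promoters. With replicate 1 alone this turned, and the median CpG ratio defined below was 0.287, nearer to the 0.181 of enhancer-like regions than to the 0.761 of regions with a start made the same way. The enhancer-like set is the 21122 regions over 1 kb from every start with H3K27ac on and H3K4me3 not on. Not on means not in both replicates, so some of these regions had H3K4me3 in 1 replicate. The midpoints of 16.2% lay in an H3K4me3 peak of replicate 1 and those of 0.388% in one of replicate 2. In 300 bp at the midpoint, the median GC content was 62.7% for members, 66.7% for active regions with a start and 45.0% for the H3K27ac-only regions. The CpG observed/expected ratio, the number of CpG relative to that given by the C and G content, had medians of 0.589 (95% interval 0.564 to 0.616), 0.788 and 0.198. The ratio was spread widely among members, with quartiles of 0.371 and 0.773, so that the set spans both of the others.

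**Figure D2:**
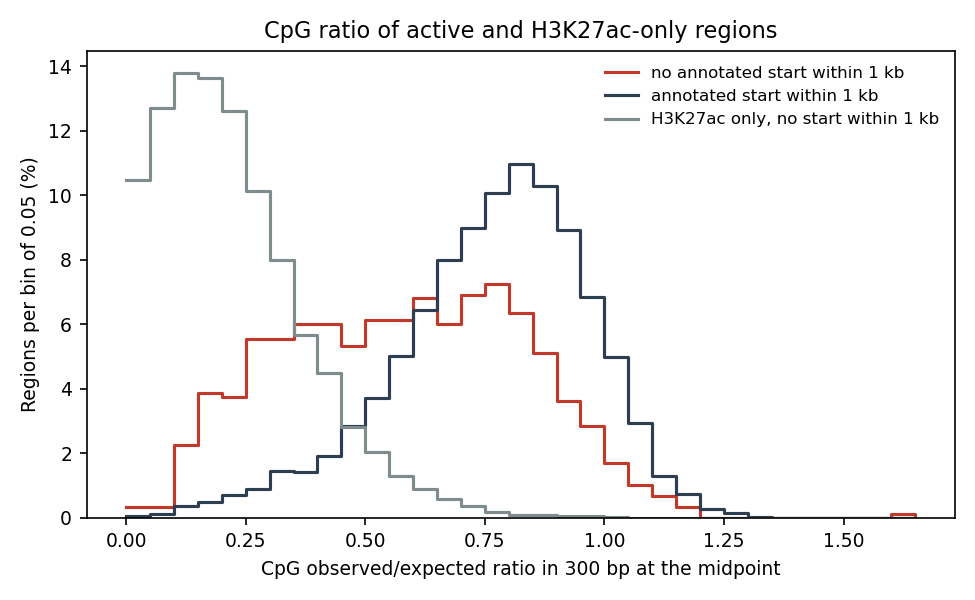
Distribution of the CpG observed/expected ratio (horizontal axis, bins of 0.05) as the share of regions in each bin (%, vertical axis) for the 3 sets. Members spread between the H3K27ac-only regions, with a median of 0.198, and the active regions with a start, with a median of 0.788.

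A window was called island-like with a GC content of at least 50% and a ratio of at least 0.6. Of the members, 403 were island-like (45.7%, interval 42.4 to 49.0%), against 76.1% of all active regions, 78.4% of those with a start and 274 of the 21122 H3K27ac-only regions. Among members the share rose with width, from 21.3% of those of 200 bp to 45.5% at 400 to 600 bp, 58.1% at 800 to 1000 bp and 76.4% at 1200 bp or more. The same classes of regions with a start had 57.1, 74.4, 83.6 and 87.3%, so the difference between the sets was least among the widest regions. Width and island-like sequence moved together in both sets, and the part of width in the difference was not tested beyond these classes. Distance mattered little for the members' ratio, whose median was 0.563 at 1 to 2 kb and 0.628 beyond 20 kb.

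Island-like members and the other 479 differed in place as well. Island-like members had a median width of 600 bp and the others 400 bp. They lay in introns of protein-coding genes less often (26.3% against 43.2%), in coding exons more often (32 of 403 against 10 of 479) and between genes more often (51.6% against 40.5%). Of all members, 313 midpoints lay in an intron (35.5%), 42 in a coding exon (4.76%), 30 in a noncoding part of an exon (3.40%), 95 in a gene of another type (10.8%) and 402 outside genes (45.6%). A protein-coding gene thus held 43.7% of members, against 79.5% of regions with a start and 55.2% of H3K27ac-only regions. Coding exons held 0.691% of the H3K27ac-only regions and 12.4% of the regions with a start, with the members between them. Introns held 39.3% of the regions with a start and 52.1% of the H3K27ac-only regions, and 11.4% and 31.4% lay outside genes.

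Motif matches placed the members near annotated promoters for the GC box and, over all regions, between the sets for AP-1. Each motif was searched as exact letters on both strands of the 300 bp. The GC box, GGGCGG, a site of SP factors, was in 439 members (49.8%), against 60.6% of all active regions, 61.4% of those with a start and 6.33% of H3K27ac-only regions. Within island-like sequence it was in 69.5% of members and in 69.5% of regions with a start, but in 39.4% of the 274 island-like H3K27ac-only regions. In the sequence that was not island-like, the shares were 33.2, 32.2 and 5.90%. By this element, members matched annotated promoters of the same CpG class and not H3K27ac-only regions of that class.

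AP-1 letters were in 63 members (7.14%, interval 5.62 to 9.03%), against 3.8% of all active regions, 3.55% of those with a start and 15.7% of H3K27ac-only regions. They were in 25 of 403 island-like members (6.20%) and in 275 of 9395 island-like regions with a start (2.93%), with intervals that did not overlap, and in 15 of 274 island-like H3K27ac-only regions (5.47%). In the rest they were in 7.93% of members (interval 5.83 to 10.7%), 5.82% of regions with a start (interval 4.98 to 6.79%, overlapping that of members) and 15.9% of H3K27ac-only regions. By distance from a start, they were in 5.71% of members at 1 to 2 kb, 7.94% at 2 to 5 kb, 5.48% at 5 to 20 kb and 13.5% of the 111 beyond 20 kb, with no steady order, and in 17.0% of the H3K27ac-only regions beyond 20 kb.

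TEAD letters, GGAATG, bound by the partners of YAP1 and WWTR1, were in 138 members (15.6%), against 10.9% of all active regions and 17.7% of H3K27ac-only regions. In island-like sequence they were in 13.4% of members, 8.75% of regions with a start and 9.85% of H3K27ac-only regions. In the rest the 3 shares were close, at 17.5, 17.0 and 17.8%. TGTGGT, part of the RUNX motif, was in 107 members (12.1%), against 8.38% of all active regions and 21.1% of H3K27ac-only regions. Within each CpG class its intervals for members and regions with a start overlapped (8.44% and 6.87% in island-like sequence, 15.2% and 12.6% in the rest). CACGTG, the E-box of factors such as MYC and USF, was in 80 members (9.07%, interval 7.35 to 11.1%), against 6.58% of all active regions, 6.40% of regions with a start and 3.59% of H3K27ac-only regions. Within island-like sequence it was in 9.43% of members, 6.54% of regions with a start and 9.49% of H3K27ac-only regions, so there the members did not stand above the last set. CCGGAAG, an ETS motif, was in 60 members (6.80%) against 9.39% of all active regions. Within each CpG class the intervals of members and regions with a start overlapped for it too (9.68% and 10.8% in island-like sequence, 4.38% and 5.13% in the rest). The letters CCAAT were in 159 members (18.0%) and 17.6% of all active regions, and TATAAA in 30 (3.40%) and 2.89%, both far below the 33.0% and 19.9% of the H3K27ac-only regions.

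Rare letters gave few matches. The palindromic NRF1 motif was in 3 members (0.340%) against 0.567% of all active regions, CAAAGTCCA of HNF4 in 3 (0.340%) against 0.28%, the CTCF core in 4 (0.454%) against 0.21%, and the full palindrome of HNF1 in none against 0. With so few matches, the members' intervals overlapped those of all active regions for NRF1 and CTCF, and lay above those of the H3K27ac-only regions, where the shares were 0.00473% and 0.0900%. GC-rich letters become more frequent and AT-rich letters rarer as GC content rises, and apart from the split by CpG class the part of composition in the shares was not tested.

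**Figure D3:**
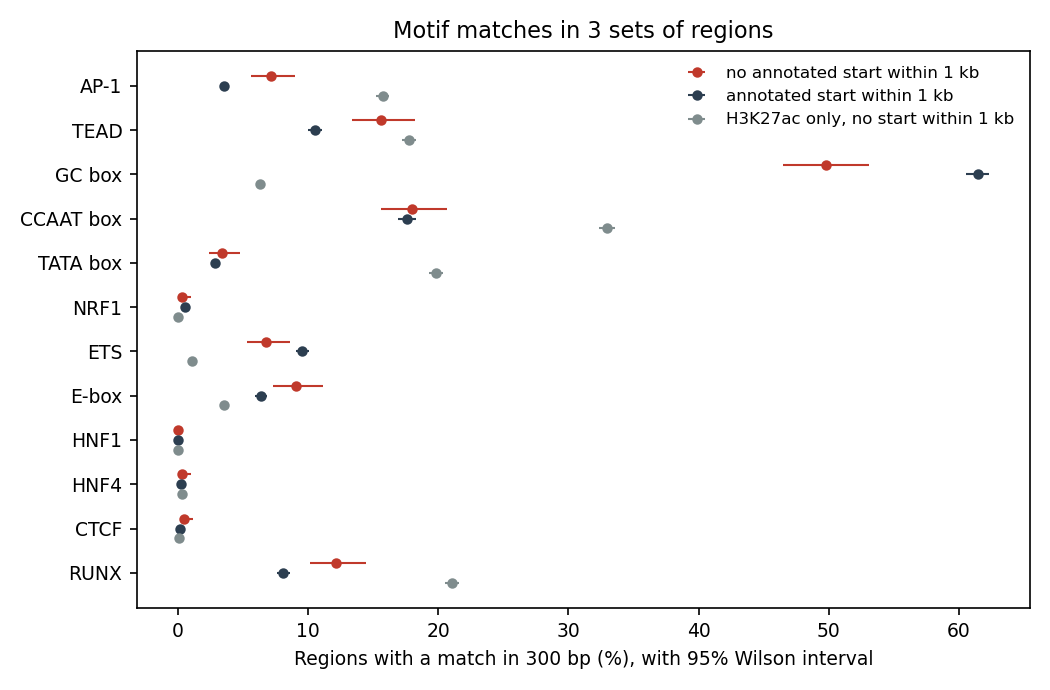
Share of regions with at least 1 match in 300 bp (%, horizontal axis) for 12 motifs (vertical axis) in the 3 sets, with 95% Wilson intervals that cover counting error only. Members lie between the other sets for 9 motifs, with the GC box at 49.8% and AP-1 at 7.14%, and above both for the E-box and CTCF.

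RNA was read in genes, since the deposited transcripts are annotated ones and a transcript from an unannotated start would not be listed. FPKM values carry no read counts, so the depth behind them is unknown. Members lay inside 352 protein-coding genes, of which 346 were in the RNA-seq data. The median FPKM of these host genes was 7.63 and 7.22 in the 2 libraries, against 3.27 and 3.39 for all 19600 protein-coding genes. At least 1 FPKM in both libraries was reached by 261 hosts (75.4%, interval 70.6 to 79.7%), against 58.9% of all protein-coding genes. Hosts of H3K27ac-only regions had a median of 7.59 over both libraries and 76.0% were expressed, but 264 of the 346 hosts of members are among them. These shared hosts had a median of 8.27 with 78.4% expressed, and the 82 hosts of members alone had a median of 4.41 (interval 1.48 to 7.68) with 65.9% expressed (interval 55.1 to 75.2%).

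Most hosts had an active region at their own start. This held for 238 of 346 (68.8%), against 52.1% of all protein-coding genes, and for a similar 68.2% of hosts of H3K27ac-only regions. The median FPKM of the 238 was 12.2 and 12.0 in the 2 libraries, near the 11.6 and 11.8 of all genes with an active start. The 108 hosts without one had a median of 0.400 and 0.445, and 40 of them were expressed (37.0%, interval 28.5 to 46.4%). All genes without an active start had medians of 0.0246 and 0.0255 with 22.3% expressed, while hosts of H3K27ac-only regions without one had 0.411 and 0.399 with 37.8% expressed. Within each class of start, the medians of both kinds of host lay inside each other's intervals, with most hosts of members counted in both kinds. Hosts of island-like members had a median FPKM of 5.49 (interval 4.06 to 7.12) and those of the others 8.69 (interval 6.72 to 11.2). Where the H3K4me3 peaks stayed clear of starts, the host median was 4.76.

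**Figure D4:**
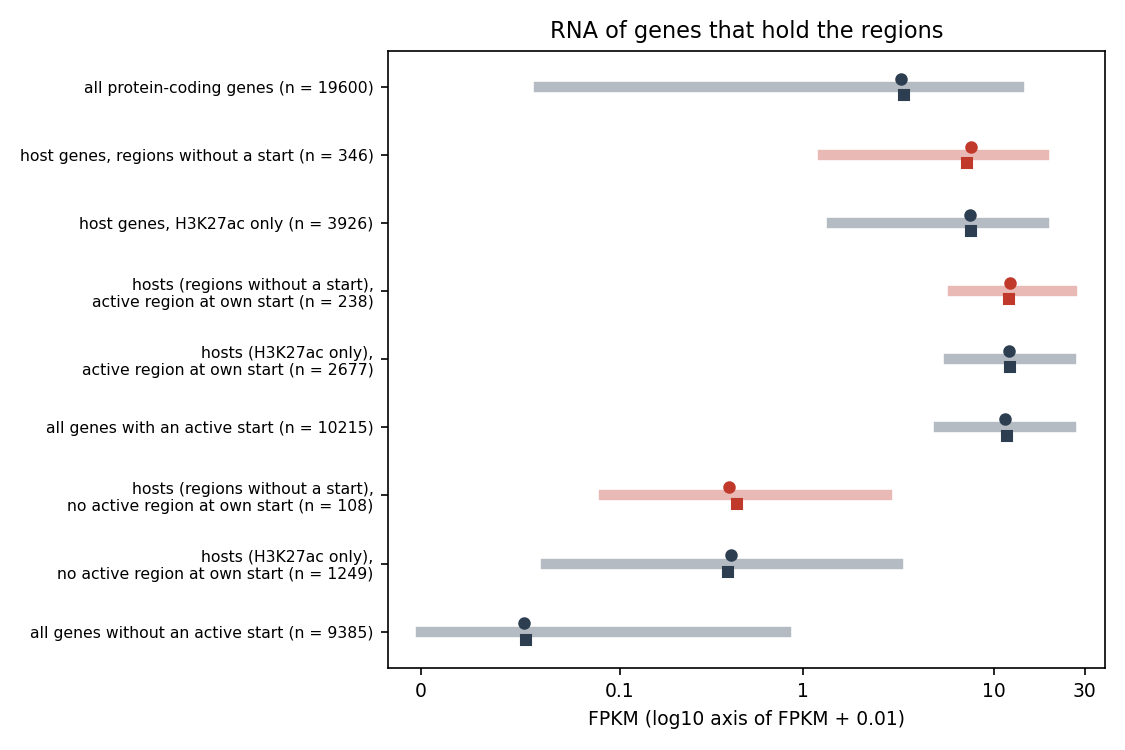
FPKM of protein-coding genes (horizontal axis, log10 of FPKM + 0.01) by whether they hold a member or an H3K27ac-only region and have an active region at their own start. Circles and squares are the medians of libraries 1 and 2 and bars span the quartiles of the mean over both; hosts of members and of H3K27ac-only regions, which share 264 genes, have medians of 12.0 and 12.1 with an active start and 0.457 and 0.403 without.

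The 421 protein-coding genes nearest to members outside such genes were also mostly expressed, with a median FPKM of 7.62 and 313 at 1 FPKM or more in both libraries (74.3%, interval 70.0 to 78.3%). For the 3157 protein-coding genes nearest to H3K27ac-only regions outside such genes, the values were 6.54 and 69.4%. The interval of that share, 67.8 to 71.0%, overlapped that of members, and genes in both sets were not separated.

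BCOR held the most members, 6, of which 5 were island-like. With gaps of up to 5 kb joined, 3 of the 6 formed a group and 2 formed another. The number of members in a gene thus depends on small gaps between bins. The gene lies on chrX:39909068-40036582, minus strand (ENSG00000183337), and its FPKM was 5.82 and 7.90 in the libraries (6.86 ± 1.47, SD, n = 2). Downstream of its 5′ end the members began at 2.78, 18.6, 22.8, 67.4, 69.6 and 70.0 kb, and the last of them was the intronic region of 2400 bp printed above. Annotated starts of BCOR at 78.2 to 81.1 kb lay in an H3K4me3 peak of both replicates and in an H3K27ac peak of replicate 1, with none of replicate 2, so that stretch was not called active. The start at 30.7 kb lay in peaks of both marks in both replicates, and the member at 2.78 kb lay in the same replicate 1 H3K4me3 peak as the gene's 5′ start. No H3K27me3 peak lay along the gene.

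**Figure D5:**
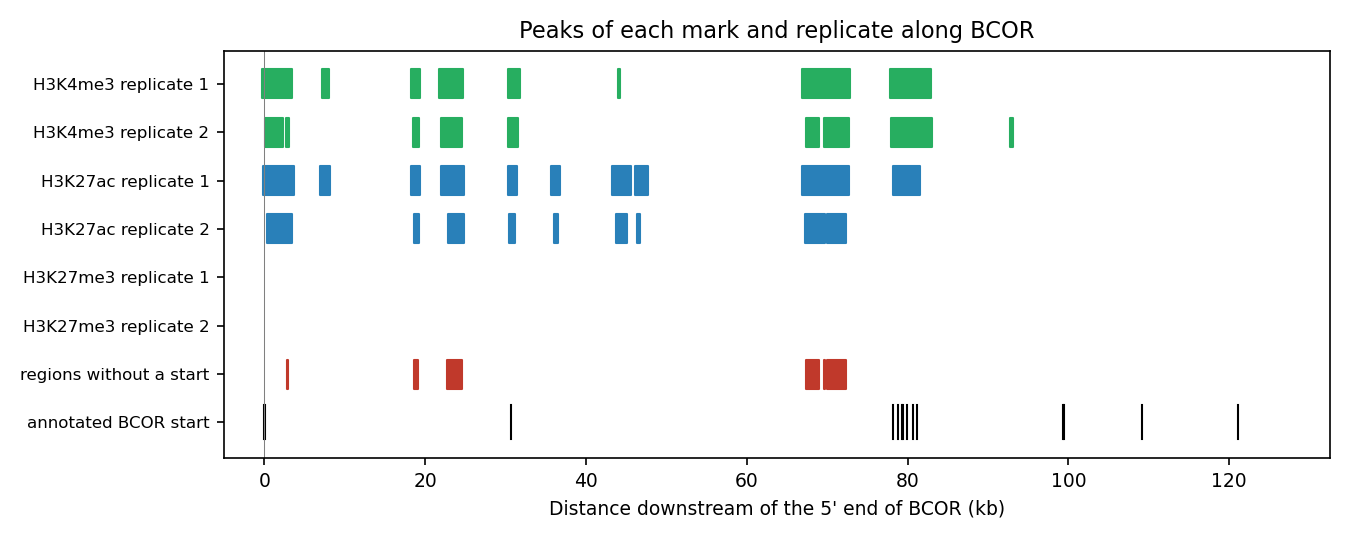
Peaks of each mark and replicate, the 6 members and the annotated starts along BCOR, by distance downstream of its 5′ end (kb, horizontal axis). Members stand where both H3K4me3 and H3K27ac have peaks in both replicates, from 2.78 to 72.4 kb, away from the black lines of the starts.

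BAIAP2 held 4 members, 1 of them island-like, within chr17:79017201-79024200. With gaps of up to 5 kb joined, all 4 fell in a single group, as did the 3 members of AHNAK2 and the 3 of SIM1. BAIAP2 is therefore not a gene with 4 separate places. It encodes an adaptor of the actin cytoskeleton, and its FPKM was 20.1 and 22.2. Genes with 3 members each included RAI1, NOL4L, AHNAK2, DIP2C, PLXND1, SIM1 and RASA3. Among them PLXND1, a semaphorin receptor, had 55.6 and 50.6 FPKM. SIM1, a transcription factor of the developing nephron, had 2.22 and 2.14 FPKM with 2 of its 3 members island-like. DIP2C, at 4.28 and 5.23 FPKM, was the one of these 10 genes with no active region at a start. The genes with several members thus ran from low to high RNA.

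Longest of all were the RIN2 region, chr20:19954801-19957200, and the BCOR region, chrX:39964201-39966600, at 2400 bp each. The RIN2 region lay in a coding exon 39032 bp from the nearest start, and RIN2 had 7.74 and 7.56 FPKM. The APC2 region, chr19:1468401-1470600, lay in a coding exon of APC2 and also inside C19orf25, and APC2 had 1.74 and 2.58 FPKM while C19orf25 had 16.6 and 16.0. The ZFPM1 region, chr16:88599401-88601400, was also in a coding exon, and ZFPM1 had 2.22 and 1.42 FPKM.

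Of the remaining long members, chr10:102489401-102491400 lay 3753 bp upstream of PAX2, a transcription factor of nephron development, which had 0.372 and 0.400 FPKM. Another, chr1:51442601-51444400, lay 6684 bp from CDKN2C, an inhibitor of CDK4 and CDK6, at 32.0 and 30.2 FPKM. The member chr22:30651801-30653800 was unlike these in sequence, with 3 CpG in its window and a ratio of 0.153. It lay 8007 bp downstream of the start of the cytokine gene OSM, listed at 0 in both libraries, inside an H3K27ac peak at chr22:30618567-30655656 in replicate 1. A member in an intron of ESRRG, an orphan nuclear receptor, at chr1:216774001-216775000 was the farthest from a start, at 113595 bp, after the 3 members of low GC content described above, and its window had 27 CpG while ESRRG had 0.00954 and 0.00981 FPKM.

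Among the 10 hosts with most RNA, FTL, the ferritin light chain, led with 3878 and 3780 FPKM. FLNA, filamin A, had 739 and 701, and MYH9, the heavy chain of nonmuscle myosin, had 568 and 559. TUBB4B and TUBA1C, which encode tubulins, had 637 and 602, and 422 and 423. ACTN4, an actin-crosslinking actinin, had 226 and 237, and FSCN1, which bundles actin, had 202 and 195. MT1E, a metallothionein, and HNRNPF, a splicing regulator, had means of 637 and 258. All 10 had an active region at a start, against 68.8% of all hosts of members. FTL, MT1E and TUBB4B are short genes on the plus strand, so their members lay not far downstream of the gene's own start. FTL begins at chr19:49468566 and its member at 49469601, MT1E at chr16:56659387 and 56660801, and TUBB4B at chr9:140135739 and 140137401. Whether the peaks at the start run on to these members is not shown here. TUBA1C alone of the 10 held an island-like member. Among all members, which include those outside genes, 45.7% were island-like, and among the 313 in introns of protein-coding genes 106 were. Ferritin, tubulin and metallothionein genes have close copies, so how reads were shared among copies is uncertain.

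Hosts without an active region at a start had less RNA. The highest was ECE1, the endothelin-converting enzyme, at 53.3 and 50.4 FPKM, followed by SNRPN at 41.0 and 29.7. SNRPN overlaps the gene SNURF, so its reads may be split between them. NEDD4L, a ubiquitin ligase that acts on the epithelial sodium channel, had 19.2 and 26.1, CRTAC1 15.6 and 14.4, and RTN4R 13.7 and 14.4. None of the members in these 5 genes was island-like, against 45.7% of all members in and outside genes. With 5 genes there are too few to compare with that share.

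Of the listed groups, those of actin genes and nephron factors had genes that held a member. Over all 19600 protein-coding genes, 346 did, or 1.77%. Of 30 genes of actin, adhesion and the Hippo pathway, 3 did (10%, namely ACTN4, FLNA and MYH9), and of 20 nephron transcription factors 2 did (10%). These were PAX8, which specifies renal epithelium, with an island-like member at chr2:114033401-114034000 and 100 and 104 FPKM, and FOXC1, with 4.50 and 4.41 FPKM. None of 20 genes of proximal tubule transport, 18 of AP-1 and immediate early response, 20 of TGF-beta and mesenchymal state, or 18 of EGF, MET and RAS signalling held one. Counting also the genes nearest to a member, the 6 groups gave 1 of 20, 5 of 20, 6 of 30, 3 of 18, 2 of 20 and 3 of 18 in the order transport, nephron factors, actin, AP-1, TGF-beta and EGF, against 786 of 19600 (4.01%). The shares of the groups ran from 5 to 25%, each above that of all genes but from few genes per group. CCND1, the cyclin of G1, at 16.9 and 16.4 FPKM, was nearest to 2 members.

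The labelled cell type was set against marker genes. Of 10 proximal tubule markers, 7 were expressed, against 58.9% of all protein-coding genes, among them KRT8 at a mean FPKM of 182 and ITGA3 at 144. LRP2, the endocytic receptor megalin, was listed at 0 in both libraries, CUBN had 0.0375 and SLC34A1, the phosphate transporter, 0.109, so defining markers of the mature segment were absent or near 0. Podocyte, endothelial, immune and fibroblast lists had 1 of 4, 0 of 2, 1 of 3 and 1 of 4 measured genes expressed.

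Members occurred on all 23 chromosomes studied. The share of active regions without a start ran from 2.05% on chromosome 4 (10 of 487, interval 1.12 to 3.74%) to 9.38% on chromosome 13 (21 of 224, interval 6.21 to 13.9%). Chromosome 19 held 78, or 1.32 per Mb, the highest density, against 0.0523 per Mb on chromosome 4. Density per Mb also follows the number of active regions, which was 927 on chromosome 19. Its share without a start was 8.41% (interval 6.79 to 10.4%). The intervals of chromosomes 3, 4 and 11 lay below that of all chromosomes together, and those of the other 20 overlapped it.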

How the data were processed

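ChIP-seq reads were aligned to hg19 with Bowtie2 and peaks were called with MACS2 by the authors, per the study's methods. The deposited lists, 1 for each replicate, give 3 columns, the chromosome and the limits of each peak, with no score, so the depth behind a peak is unknown. In the labels 1 replicate of each mark is unnumbered and was taken as replicate 1. For RNA-seq the authors deposited FPKM and TPM values per annotated transcript from StringTie 1.3.3, on GENCODE version 27. FPKM was summed over the transcripts of a gene and joined to GENCODE version 44 on GRCh37 by Ensembl identifier, never by position. The libraries correlated across genes at Pearson's r = 0.994 on log10 values, and genes are not independent replicates.

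Regions, base composition (GRCh37 sequence), motif matches and distances came from scripts in Python 3.11.15 that used scipy 1.17.1, pandas 2.3.3 and numpy 2.4.6, with figures by matplotlib 3.10.9. The region rule was checked on simulated peaks. No test was run, since there is 1 condition and regions and genes are not replicates. Shares have 95% Wilson intervals and medians have intervals from order statistics, and both cover counting error only. A gene counted as expressed if each library gave it 1 FPKM or more. A host gene is a protein-coding gene that contains a region's midpoint. The text names the 10 longest members, the 5 farthest from starts, the 5 densest in CpG, those at the limit, the 10 genes with most members, the 10 hosts with most RNA, the 5 with most RNA among hosts without an active start, and genes of the lists or of the study that hold or neighbour a member, as far as they add to the account. Members, lists and rules were chosen with earlier results of these data known. Alternatives covered the use of replicates, the bin and distance rules, the annotation, the windows and the RNA measure. Some genes that these rules take in are left out of the text.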

Additional observations from a re-analysis of the deposited data

How the results depend on the processing

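The number of regions and their sequence depended most on the replicates. With the peaks of 1 replicate in place of both, the number of regions was 1100 to 7793 and their share of active regions 8.33 to 34.6%. The median CpG ratio was 0.287 to 0.523, GC content 48.7 to 61.0% and the share in protein-coding genes 44.9 to 52.5%. Of the 882 members as picked from both replicates, 692 to 792 had H3K4me3 peaks clear of starts when only 1 replicate's peaks were judged. Peaks of either replicate gave 8543 regions, 36.3% and a ratio of 0.289. The members' place between the sets turned with this choice. Their ratio was nearer to that of regions with a start with replicate 2 alone (0.787, and 0.198 for H3K27ac-only regions), but nearer to H3K27ac-only regions with replicate 1 alone (0.181, and 0.761 with a start) and with either replicate (0.182 and 0.756). Among the bin rules, any base covered gave a median width of 600 bp, all 200 bp covered a share of 6.17%, and a width of at least 400 bp a share of 6.01%, a median of 600 bp and a ratio of 0.635. Limits of 500 bp, 2 kb and 5 kb from a start gave shares of 9.07, 5.22 and 3.56% and host FPKM medians of 8.26, 5.49 and 5.42, with 458 regions at 5 kb. Distances to protein-coding starts alone gave 1677 regions (13.0%), with a median width of 600 bp, a ratio of 0.665 and a host median of 6.72. Joining gaps of 1 bin gave a host median of 6.72.

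Leaving out a replicate of either assay kept the host FPKM median within 6.94 to 7.63, and leaving out an RNA library gave 76.0 to 76.6% of hosts expressed, against 59.7 to 59.9% of all protein-coding genes. The host median was 20.4 in TPM, 8.81 for genes of at least 0.1 FPKM and 7.68 for the protein-coding gene with the nearest start. Hosts expressed were 57.2% at a threshold of 5 FPKM and 81.2% in TPM, against 43.2% and 63.9% of all protein-coding genes. The mean log10 difference between hosts and all protein-coding genes was 0.22 with a pseudocount of 1 and 0.38 with 0.1. With 500 bp, 7 in place of 9 of the 12 motifs had a share between those of the other sets. CCAAT went from above to below regions with a start (28.8% and 29.0%), and HNF4 from below to above H3K27ac-only regions (0.794% and 0.592%). Chosen after seeing the data, the members clear of starts gave 5.35%, a host median of 4.76, a GC content of 64.0% and 36.6% in protein-coding genes. The cause of these shifts was not tested. No paired analysis was possible because no test compared groups that share replicate numbers. The files used carry no depth per peak and no RNA read counts, so the effect of depth on single regions was not measured, and library totals given by the study were not used here.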
